A study of Hydra viridissima with 2 samples.

Results

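Sharp start clusters of moderate use are places in the green hydra genome where the 5′ ends of capped RNAs fell within a few bases of each other, without belonging to the most heavily used starts. The tags of both libraries were pooled at each base and strand, and tagged bases with at most 20 bases between them on 1 strand were joined into clusters. A cluster was kept if it had at least 30 pooled tags, less than 500 pooled CPM (tags relative to all tags of both libraries, scaled to 1000000), and a width of at most 10 bases between the 10th and the 90th percentile of its tags. This gave 1225 clusters out of 285622 joined clusters of any size, and out of 8657 clusters with at least 30 tags (14.2%). The clusters were thus selected on their pooled tag number and pooled width, and these values are given as a description only. The 7195 wider clusters in the same range of use served for comparison.

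The study used CAGE, which reads the capped 5′ ends of RNA, on whole Hydra viridissima of clone 2. The aposymbiotic library came from animals without algae, and the green/symbiotic library came from animals that carry them. Each was made from a pool of about 200 large polyps kept at 24 °C and left unfed before collection, with an RNA integrity number of 10, so each group had 1 library and no difference below has a replicate check. Both groups belong to the same clone, and how the aposymbiotic animals lost their algae is not given in the sources used here. Whole animals were used, so more cells of a type and more RNA per cell cannot be told apart.

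Transcription by RNA polymerase II can begin at a single base or over a stretch of many bases. In mammals and flies, narrow starts are often fixed by motifs such as the TATA box and the initiator, and broad starts are common at genes used in most cells. A capped 5′ end marks the first base of a transcript unless the RNA was processed. In Hydra, some mRNAs receive a short spliced leader by trans-splicing, and their capped end is then that of the leader. No genome sequence or gene models were used here, so clusters are named by their scaffold, strand and outermost tagged bases, numbered from 1, and a start means the position of a 5′ tag.

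The aposymbiotic library held 2138180 tags and the symbiotic library 3926689, 1.84 times as many. One tag thus stood for 0.468 CPM in the former and 0.255 CPM in the latter. The sharp clusters held 29882 aposymbiotic tags (1.40% of that library) and 51628 symbiotic tags (1.31%). Of the 1225 clusters, 616 lay on the plus and 609 on the minus strand, spread over 29 scaffolds. The median cluster had 43 pooled tags, from 30 to 1663, with medians of 16 aposymbiotic and 29 symbiotic tags. As levels these were 7.48 CPM and 7.39 CPM. Every sharp cluster had tags in both libraries, with at least 2 aposymbiotic and 8 symbiotic tags, and 791 had fewer than 20 aposymbiotic tags.

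The widths of clusters of moderate use formed a narrow peak and a broad hump. The most common width was 3 bases, with 281 clusters, and 724 of the sharp clusters were 2 to 4 bases wide. The number then fell to 48 clusters at a width of 10 bases and rose again, to 59 at 11 bases and 85 at 15 bases. In steps of 3 bases there were 560 clusters of 3 to 5 bases, 167 of 9 to 11 bases and 248 of 18 to 20 bases. The limit of 10 bases therefore lay in the dip between the peak and the hump, and 931 of the 1225 clusters were at most 5 bases wide. Sharp clusters made up a smaller share of the more used clusters. Their share was 21.3% (interval 19.9 to 22.7) of the 3477 moderate clusters with 30 to 49 tags, 8.79% (7.22 to 10.6) of those with 100 to 199 tags and 1.57% (0.678 to 3.06) of the 511 with at least 500 tags. These and all later intervals are exact 95% binomial intervals that cover counting error only and take clusters as independent. Because a cluster grows whenever a further tag falls within reach, width and tag number are linked by the way clusters are built, and the part of this link in the falling share was not tested.

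**Figure D1:**
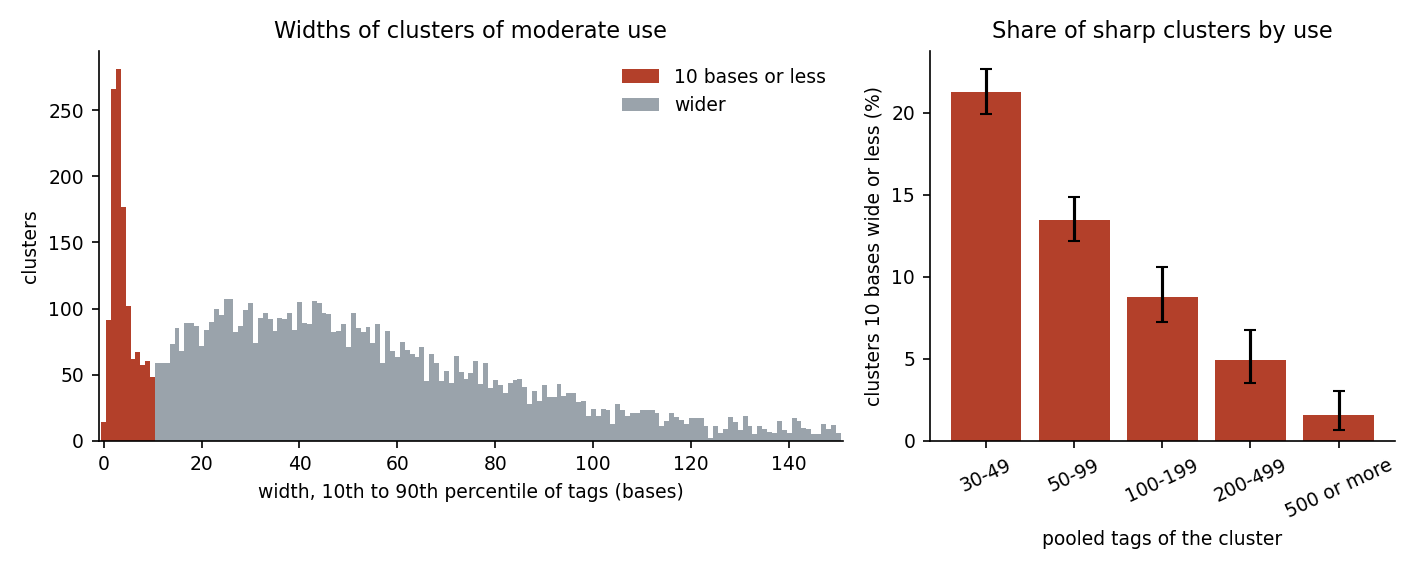
Left, the number of clusters of moderate use (vertical axis) at each width in bases (horizontal axis, drawn up to 150 bases), with the 1225 sharp clusters in red and the wider ones in grey. Right, the share of moderate clusters that were sharp (%) by their pooled tags, with exact 95% binomial intervals as bars, which falls from 21.3% to 1.57%.

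Within a sharp cluster 1 base stood out, flanked by a few lesser bases. The median share of pooled tags on the most used base was 47.5%, from 18.2% to 99.4%, against a median of 23.1% in the wider clusters. In 553 clusters (45.1%) that base held at least 50% of the tags, and in 10 clusters (0.816%) it held at least 90%. Starts confined to a single base were thus rare: 14 of the 1225 clusters had a width of 0. Averaged over clusters, the aposymbiotic tags were 49.7% on the most used base, 11.7% on the base before it, 6.34% a further base upstream, 9.40% on the base after it and 6.26% a further base downstream. The symbiotic average was 48.6% on the most used base, 11.97% on the base before it and 9.52% on the base after it. The flanks were thus uneven in both libraries, with more tags on the upstream neighbour than on the downstream one. At the most used base and its neighbours the wider clusters showed the same order at lower values, with 25.4% on the most used base, 5.38% before it and 4.45% after it in the aposymbiotic library. The upstream excess did not extend to 2 bases away throughout. There the sharp clusters had 6.23% upstream and 6.38% downstream by symbiotic tags, and the wider ones 3.06% and 3.30% by aposymbiotic tags.

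The 2 most used bases of a sharp cluster were usually neighbours, which the width limit largely fixes, so the values of this paragraph and their contrast with wider clusters are a description. In 1101 clusters the second most used base could be named without a tie, and it lay 1 base upstream in 397 (36.1%), 1 base downstream in 248 (22.5%), 2 bases upstream in 128 and 2 bases downstream in 146. It was within 3 bases in 1020 of them (92.6%), against 40.8% in the wider clusters. In each library the 7 bases centred on the most used base held most of the cluster, with a median of 93.0% of the tags for aposymbiotic and 91.8% for symbiotic animals. The reads of this protocol carry up to 3 extra bases at the 5′ end ahead of the ligated dinucleotide, and how these were removed is not given in the sources used here. The spread seen here lay on both sides of the most used base, mostly within 3 bases of it, and the part of read trimming in it was not tested.

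**Figure D2:**
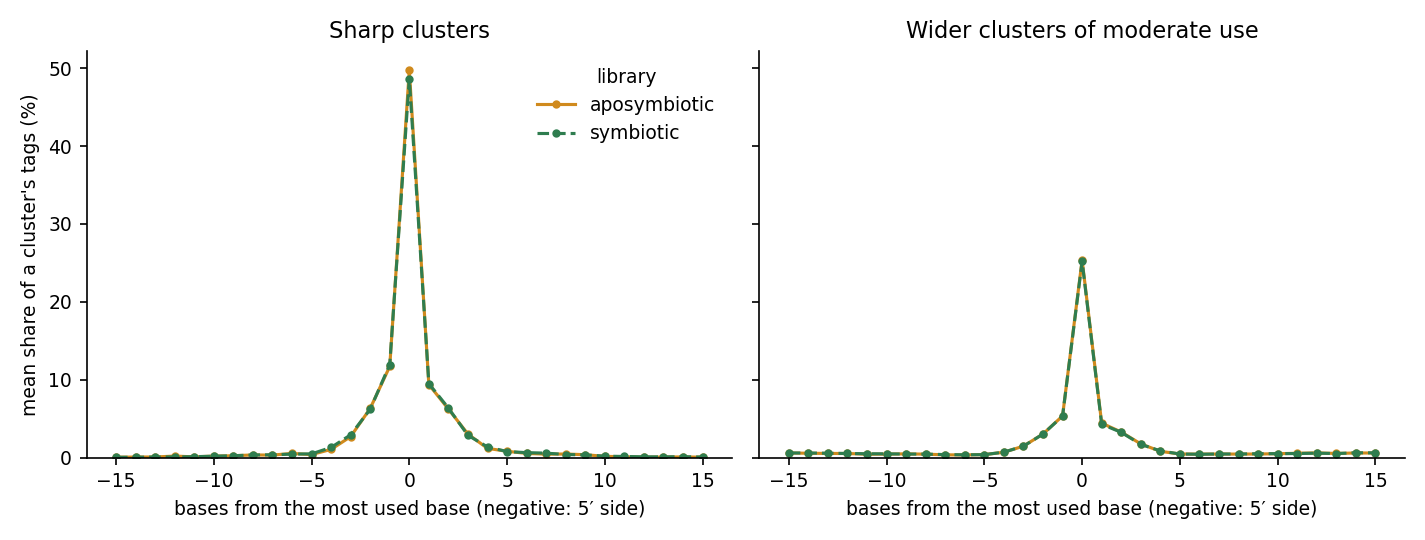
Mean share of a cluster's tags (%) at each base from 15 bases upstream to 15 bases downstream of the most used base of the pooled tags, for the 1225 sharp clusters (left) and the 7195 wider clusters (right), with the aposymbiotic library in orange and the symbiotic library in green. The curves of the libraries lie on each other, and the sharp clusters reach 49.7% and 48.6% at the centre.

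The clusters with the most tags are those whose shape was measured with the least counting error. Few moderate clusters of such use were sharp, as given above, so these need not stand for the smaller sharp clusters. The plus-strand cluster at bases 4755560 to 4755662 of scaffold_7 was the most used, with 795 aposymbiotic and 868 symbiotic tags (372 CPM and 221 CPM). It was 3 bases wide, and base 4755598 held 61.3% of its aposymbiotic and 60.5% of its symbiotic tags. Although the strongest sharp cluster, it held only 6.24% of the tags of its locus, a locus being a run of clusters of at least 5 tags on 1 strand with at most 1000 bases between neighbours. Nearly as strong was the plus-strand cluster at bases 191045 to 191053 of scaffold_24, with 573 aposymbiotic and 1085 symbiotic tags (268 CPM and 276 CPM). Almost all of its tags were on a neighbouring pair of bases: base 191052 took 88.5% of them in the aposymbiotic library and 87.9% in the symbiotic one, and the next base downstream held 11.3% and 11.4%. It held 95.0% of the tags of its locus, unlike the first.

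The next clusters also had 1 highest base, but not all were narrow in each library. The scaffold_13 cluster below was 10 bases wide by pooled tags, yet 27 by aposymbiotic and 20 by symbiotic tags. The minus-strand cluster of scaffold_7 below was 4 bases wide by pooled, 3 by aposymbiotic and 13 by symbiotic tags. On scaffold_2, the plus-strand cluster at bases 21435560 to 21435626 had 355 aposymbiotic and 344 symbiotic tags, the minus-strand cluster at 6383119 to 6383197 of scaffold_7 had 340 and 347, and the plus-strand cluster at 3928654 to 3928834 of scaffold_13 had 326 and 354. With nearly equal tags at unequal depth, all 3 had a lower level in the symbiotic library, by 1.90-fold (1.63 to 2.20), 1.80-fold (1.54 to 2.10) and 1.69-fold (1.45 to 1.97) in CPM. The most used of all, on the plus strand of scaffold_7, was also lower, by 1.68-fold (1.53 to 1.85). In contrast the scaffold_24 cluster had a ratio of 1.03 (0.931 to 1.14), so these strong sharp clusters did not share a level of change. The minus-strand cluster at 11162394 to 11162442 of scaffold_2 had 207 and 362 tags, that at 4738085 to 4738161 of scaffold_4 had 194 and 336, and that at 11983259 to 11983334 of scaffold_8 had 175 and 330. Their CPM ratios of 0.952 (0.801 to 1.14), 0.943 (0.788 to 1.13) and 1.03 (0.852 to 1.24) all have intervals that include 1.

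The last of the 10 most used clusters differed in opposite directions. The plus-strand cluster at 14739246 to 14739264 of scaffold_6 had 92 aposymbiotic and 370 symbiotic tags, 43.0 CPM and 94.2 CPM, 2.19-fold higher (1.74 to 2.78). The minus-strand cluster at 8606731 to 8606789 of scaffold_12 had 188 and 256 tags, 87.9 CPM and 65.2 CPM, 1.35-fold lower (1.11 to 1.63). All 10 had the same most used base in both libraries. Their peaks differed in height: base 11162430 of the scaffold_2 cluster on the minus strand held 34.8% of its aposymbiotic tags and 36.5% of its symbiotic tags, and the next base downstream held 20.3% and 17.7%. The scaffold_6 cluster had a second peak 2 bases downstream of the first, with 27.2% and 25.1% of the tags beside 46.7% and 45.7%, the same form in both libraries despite the difference in level.

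**Figure D3:**
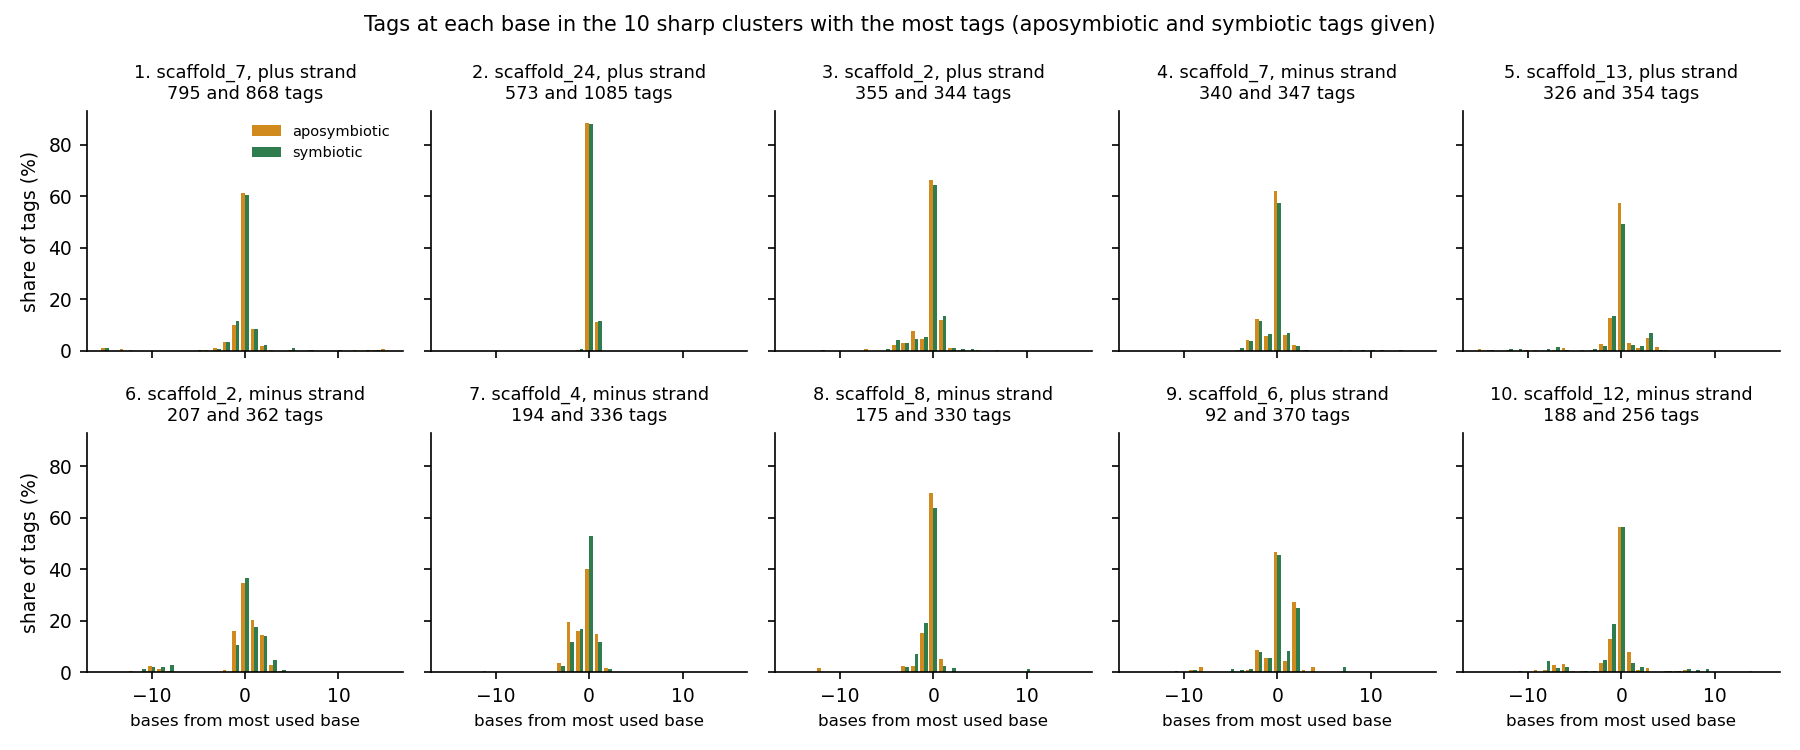
Share of tags (%) at each base around the most used base, which is at 0, for the 10 sharp clusters with the most pooled tags, aposymbiotic in orange and symbiotic in green, with the tag numbers of both libraries in that order above each panel. Each cluster has its highest bar at the same base in both libraries, from 34.8% in panel 6 to 88.5% in panel 2 for the aposymbiotic tags.

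Among the 147 sharp clusters with at least 100 tags, the share on 1 base covered a wide range. The plus-strand cluster at 9365376 to 9365377 of scaffold_14 was the most focused, with all 62 aposymbiotic tags and 99.0% of 102 symbiotic tags on base 9365377. A plus-strand cluster of scaffold_24, at 47724 to 47749, had 93.6% of 47 aposymbiotic and 93.9% of 66 symbiotic tags on base 47727. On scaffold_15 the plus-strand cluster at 5447292 to 5447328 had 82.7% and 86.7% on its most used base, and on scaffold_3 the plus-strand cluster at 14034677 to 14034776 had 85.1% and 83.2%. At the other end was the plus-strand cluster at 4767737 to 4767796 of scaffold_7, which spread its 107 aposymbiotic and 181 symbiotic tags over a width of 9 bases. Its most used base was 4767783 with 20.6% of the aposymbiotic tags and 4767780 with 22.7% of the symbiotic tags. The other clusters among the 5 least focused had 23.1% to 27.0% of their pooled tags on 1 base, and 3 of these 4 used different top bases in the libraries. One of them, on the minus strand at 13973681 to 13973689 of scaffold_12, was only 4 bases wide, so a narrow cluster need not have a dominant base.

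Within the sharp clusters, the most used base mostly lay at or near the same place in both libraries. The width limit was set on the pooled tags of both libraries, so a start that moved far would mostly have been left out. The shares among sharp clusters are therefore a description. The most used base was the same in 865 of the 1225 sharp clusters (70.6%, 68.0 to 73.2), and the top bases were at most 3 bases apart in 1187 (96.9%). In the wider clusters the shares were 49.7% (48.6 to 50.9) and 65.2%. A narrow cluster has fewer bases to choose from, so part of this contrast is set by the width rule. The share rose with use: it was 66.2% (489 of 739) among sharp clusters of 30 to 49 tags and 86.1% (87 of 101) among those of 100 to 199 tags, and all 8 with at least 500 tags kept the base. Wider clusters of the same tag classes had 37.8%, 59.0% and 76.9%.

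Widths were also taken in each library alone. The pooled width of these same tags chose the clusters, so narrow widths per library follow largely from the selection and are given as a description. For the 407 sharp clusters in which both libraries had 20 tags or more, the aposymbiotic width had a median of 3 bases and the symbiotic width one of 4 bases. The width was at most 10 bases in 370 of them (90.9%) by aposymbiotic tags alone, in 371 (91.2%) by symbiotic tags alone and in 337 (82.8%) by both. The largest widths were 45 bases by aposymbiotic tags and 33 bases by symbiotic tags. In the same clusters, the base chosen as most used in the aposymbiotic library held a median of 46.8% of the symbiotic tags, close to the 47.6% held by the symbiotic library's own top base. In reverse, the base chosen in the symbiotic library held 48.1% of the aposymbiotic tags, against 50% for their own top base. The corresponding gap was larger in 3972 wider clusters, at 17.5% against 21.7% and 18.8% against 22.9%.

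In level, most sharp clusters differed little between the libraries. The ratio of symbiotic over aposymbiotic CPM, with 1 CPM added to each, had a median log2 of -0.02 and an SD over clusters of 0.60. Over all 8657 clusters with at least 30 tags the median was -0.01 and the SD 0.58. Of the sharp clusters, 1119 (91.3%) were within 2-fold, 60 (4.90%) were higher by 2-fold or more in symbiotic animals and 46 (3.76%) were lower by as much. The same sizes of difference were reached by 3.89% of all clusters upward and 4.02% downward, so the shares among sharp clusters were near the background. With 5 CPM added in place of 1 the numbers were 6 higher and 11 lower, which turns the order of the directions. The same was not counted over all clusters, so this turn is not shown to be particular to sharp clusters. Most of the clusters past 2-fold with 1 CPM added were small: 45 of the higher and 33 of the lower ones had 30 to 49 tags, where counting error is largest. They were 6.09% and 4.47% of the 739 sharp clusters of that class, against 6.46% and 5.08% of 2738 wider ones. At 50 to 99 tags 3.24% of 339 sharp clusters went each way, against 3.54% upward and 4.55% downward of 2177 wider ones. Of the 147 sharp clusters with at least 100 tags, 4 reached 2-fold upward and 2 downward. At 100 to 199 tags these were 2.97% upward and 0.990% downward of 101, against 1.34% and 2.96% of 1048 wider clusters, with overlapping intervals. At 200 to 499 tags 1 of 38 sharp clusters went each way, against 0.549% and 2.74% of 729 wider ones. At 500 tags or more 0 of 8 did, against 0.994% and 2.58% of 503.

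**Figure D4:**
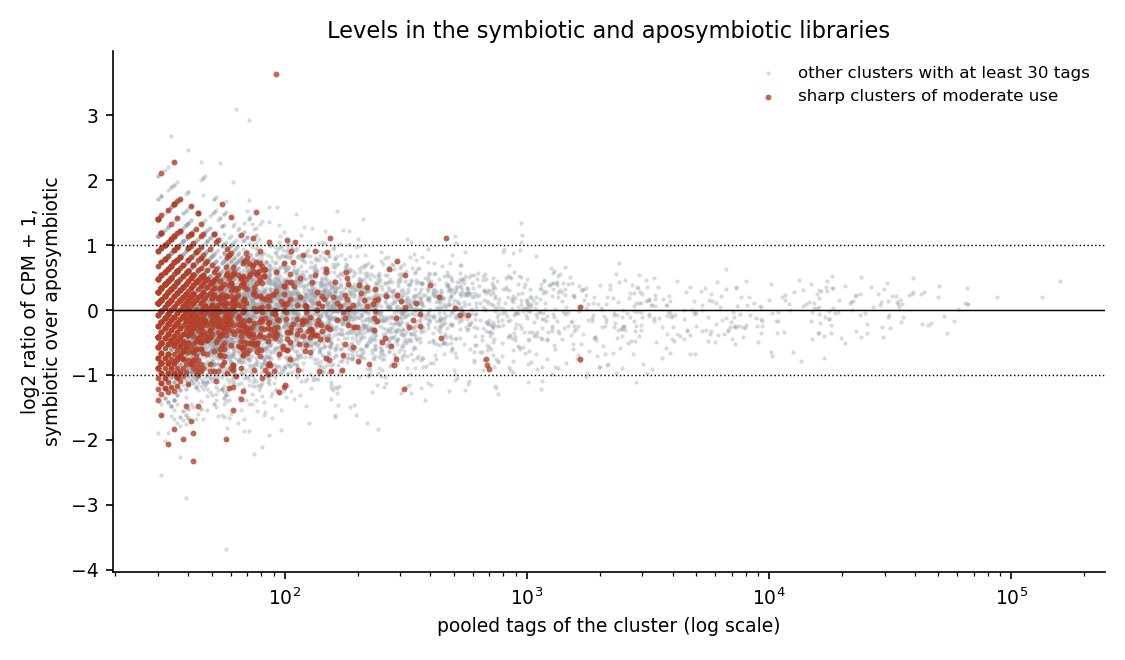
Log2 ratio of CPM + 1 in the symbiotic over the aposymbiotic library (vertical axis) against pooled tags (horizontal axis, log scale) for the 1225 sharp clusters (red) and the other clusters with at least 30 tags (grey), with dotted lines at 2-fold. The spread narrows as tags increase, and 1 sharp cluster with 92 tags stands at 3.63.

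Among the 356 sharp clusters with at least 60 tags, the highest ratio belonged to the minus-strand cluster at bases 18042729 to 18042746 of scaffold_9. It had 2 aposymbiotic and 90 symbiotic tags, 0.935 CPM and 22.9 CPM, 24.5-fold higher (6.59 to 205). On the log2 scale of CPM + 1 this was 3.63, which fell to 2.23 when 5 CPM were added instead, and it rests on 2 aposymbiotic tags, fewer than the 3 that a count of 0 allows. It was 2 bases wide, with 62.2% of the symbiotic tags on base 18042730. The next cluster upstream had 2 and 61 tags and the one before that 3 and 68 tags. The first cluster of the locus had 9 and 23 tags, the lowest of the 5 ratios in this locus. The next highest was the minus-strand cluster at 10070078 to 10070106 of scaffold_1, with 11 and 65 tags, 5.14 CPM and 16.6 CPM, 3.22-fold higher (1.69 to 6.76). The rest of that locus had 94 and 186 tags, a log2 ratio of 0.11 for their sum. Another sharp cluster of that locus, at 10069644 to 10069667, had 18 and 17 tags and a log2 ratio of -0.82, the opposite direction.

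The other 6 of the 8 highest ratios lay between 2.19-fold and 3.09-fold. The best measured was the scaffold_6 cluster described above, whose 92 and 370 tags stood beside 1815 and 3409 tags in the rest of its locus, a log2 ratio of 1.11 against 0.03. That locus reads along the plus strand as a small cluster of 3 and 8 tags, then the sharp cluster, and 37 bases after it a broad cluster of 1119 and 2173 tags that was 134 bases wide. The broad cluster had a CPM ratio of 1.06 (0.983 to 1.14). Adjoining starts of the same locus therefore differed in their ratio between these libraries. On scaffold_1 the plus-strand cluster at 31052205 to 31052228 had 30 and 124 tags, 2.25-fold higher (1.501 to 3.48), and there the rest of the locus was also higher, with 127 and 411 tags and a log2 ratio of 0.81.

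Several of the sharp clusters with the lowest ratios lay in loci that were lower as a whole. The lowest ratio was that of the minus-strand cluster at 7923880 to 7923896 of scaffold_13, with 39 and 22 tags, 18.2 CPM and 5.60 CPM, 3.26-fold lower (1.88 to 5.76). The rest of its locus had 385 and 315 tags, a log2 ratio of -1.16. A neighbouring pair of sharp clusters on the minus strand of scaffold_10, at 5295896 to 5295942 and 5295964 to 5295988, had 55 and 40 tags and 35 and 26 tags, 2.53-fold (1.65 to 3.89) and 2.47-fold lower (1.45 to 4.28). On scaffold_12 the plus-strand cluster at 11257140 to 11257160 had 56 and 43 tags, 2.39-fold lower (1.58 to 3.65), in a locus whose remaining 16 clusters had 700 and 480 tags. The best measured of the 8 lowest was the minus-strand cluster at 15501958 to 15501982 of scaffold_5, with 174 and 136 tags, 81.4 CPM and 34.6 CPM, 2.35-fold lower (1.87 to 2.96). It was the only cluster of its locus, and base 15501973 held 73.6% of its aposymbiotic and 68.4% of its symbiotic tags. The remaining 3 were 2.34-fold to 2.83-fold lower.

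By a 4-fold size, 3 sharp clusters (0.245%, 0.0505 to 0.714) were higher and 2 (0.163%, 0.0198 to 0.589) lower, against 0.196% and 0.104% of all clusters. Besides the scaffold_9 cluster these have fewer than 60 tags, and they were singled out after their values were seen. The minus-strand cluster at 7317771 to 7317781 of scaffold_6 had 33 and 9 tags, 6.73-fold lower (3.15 to 16.0), and the rest of its locus had 132 and 53 tags. The minus-strand cluster at 1496438 to 1496453 of scaffold_11 had 25 and 8 tags, 5.74-fold lower (2.51 to 14.7). The plus-strand cluster at 15553043 to 15553051 of scaffold_7 had 2 and 29 tags, and the minus-strand cluster at 2077646 to 2077652 of scaffold_8 had 2 and 33 tags. Their CPM ratios of 7.90 (2.00 to 68.3) and 8.98 (2.30 to 77.3) also rest on 2 aposymbiotic tags each.

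Sharp clusters were seldom isolated. Most of them, 912 (74.4%), lay between other clusters of their locus, 175 (14.3%, 12.4 to 16.4) were the first from the 5′ end, 121 (9.88%, 8.26 to 11.7) were the last and 17 (1.39%) were alone. Wider clusters were first in 10.8% (10.1 to 11.5), last in 12.9% (12.2 to 13.7) and alone in 2.32%. Over all tag numbers the sharp clusters were thus first more often than last and the wider ones last more often than first. The sharp clusters kept this order in every tag class, but not every class set them apart from the wider ones. Among clusters of 30 to 49 tags the shares that were first, 13.8% (11.4 to 16.5) of the sharp and 11.4% (10.3 to 12.7) of the wider ones, had overlapping intervals. At 50 to 99 tags the intervals overlapped both for first and for last, and wider clusters of at least 500 tags were first in 60 cases and last in 57. A sharp cluster held the most tags of a locus of several clusters in 464 cases (37.9%, 35.2 to 40.7), and wider clusters did so in 44.5% (43.3 to 45.6). Wider clusters had a median of 61 pooled tags against 43, and the part of tag number in this contrast was not tested. Where another cluster led, it lay downstream in 364 of 744 cases (48.9%, 45.3 to 52.6), at a median distance of 258 bases from top base to top base in either direction, so sharp clusters had no preferred side of the lead cluster.

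The nearest cluster was often just beyond the joining distance. It was within 40 bases in 790 of the 1225 clusters (64.5%, 61.7 to 67.2), against 56.6% (55.4 to 57.7) of the wider ones, and over 100 bases away in 178 (14.5%), against 25.7%. In a window of 201 bases around the most used base, the central 7 bases held a median of 60% of all tags on that strand, so a typical sharp cluster was a peak with other starts close by. Opposite-strand tags were nearly absent around sharp and wider clusters alike. Within 10 bases of the top base, 6 of the 1225 sharp clusters had any, 10 tags in all. Of the 7195 wider clusters 28 had any, 36 tags in all. The sharpness of a cluster therefore depended on the distance at which tags were joined. With up to 30 bases allowed, 577 of the 1225 clusters (47.1%) fell in a joined cluster at most 10 bases wide, with 40 bases 350 (28.6%), with 60 bases 190 (15.5%) and with 100 bases 116 (9.47%). At 40 bases the median width of the clusters that took them in was 72 bases. The scaffold_24 cluster at 191045 was still 1 base wide at 40 bases, and the scaffold_6 cluster at 14739246 became part of one 216 bases wide.

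**Figure D5:**
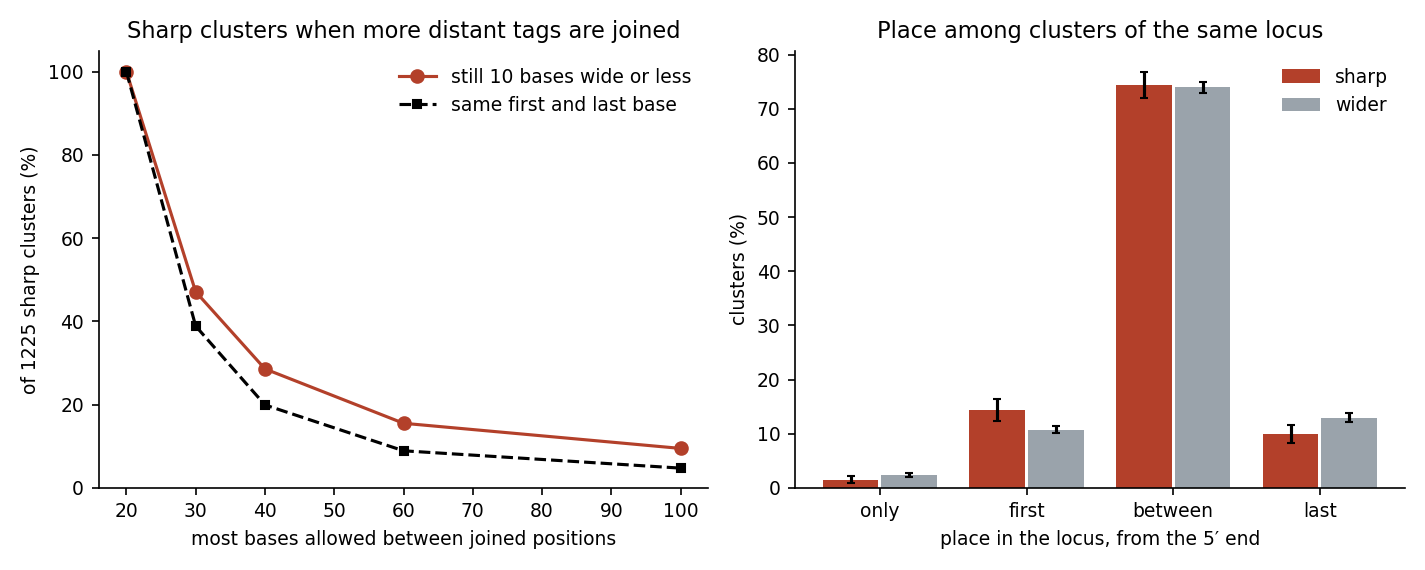
Left, the share of the 1225 sharp clusters (%) that stayed at most 10 bases wide (red) or kept the same first and last base (black) when up to 20, 30, 40, 60 or 100 bases were allowed between joined positions. Right, the share of sharp (red) and wider (grey) clusters (%) that were the only, first, between or last cluster of their locus, with exact 95% binomial intervals as bars. The red line falls to 28.6% at 40 bases.

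Most loci with a sharp cluster held just 1, but some held several. The 1225 clusters lay in 1057 loci, of which 915 held 1, 127 held 2, 13 held 3, 1 held 4 and 1 held 13. In 168 pairs of adjacent sharp clusters of a locus the log2 ratios were only weakly related, with a Pearson r of 0.21 (0.17 without scaffold_155) and a rho of 0.18, and 90 pairs had the same sign. Of these pairs, 141 (83.9%) were within 2-fold of each other, where most sharp clusters had ratios within 2-fold in the first place. A pair with many tags that differed by just under 2-fold lay on the minus strand of scaffold_12, where the cluster at 8606731 had a CPM ratio of 0.741 (0.612 to 0.8999) while the one at 8606932 to 8607008, upstream of it, had 85 and 228 tags and a CPM ratio of 1.46 (1.13 to 1.90). Their intervals do not overlap, and a cluster of 75 and 163 tags with a ratio of 1.18 (0.895 to 1.58) lay between them. Over 1108 sharp clusters whose locus had at least 30 further tags, the log2 ratio of the cluster and that of the rest of its locus correlated weakly (Pearson r = 0.32, Spearman rho = 0.29). These points share the same pair of libraries, some share a locus, and low counts weaken such a relation. Of these 1108 sharp clusters, 59 were 2-fold or more above the rest of their locus and 51 as far below it. The same was not counted for other clusters, so these numbers have no background and show no trait particular to sharp clusters.

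The locus with 13 sharp clusters lay on the minus strand of scaffold_155 between bases 1781 and 16197. It held 103 clusters, of which 37 had at least 30 tags, with 8377 aposymbiotic and 17616 symbiotic tags in all. Its sharp clusters were small, with 31 to 133 tags each and 211 aposymbiotic and 528 symbiotic tags together. The largest, at 6543 to 6554, had 29 and 104 tags with a CPM ratio of 1.95 (1.28 to 3.06), and base 6552 was the most used in both libraries. Log2 ratios ranged from -0.62 to 1.19 with a median of 0.50, beside 0.20 for the whole locus. On this scaffold 13 of 33 moderate clusters were sharp (39.4%). On the 15 scaffolds with at least 100 moderate clusters the share varied little, from 12.1% on scaffold_6 to 16.96% on scaffold_16, and these scaffolds held 1173 of the sharp clusters.

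Of the 17 sharp clusters that were alone in their locus, 11 had a log2 ratio below 0, and the median was -0.40, a comparison chosen after its values were seen. By the 2-fold size 0 of them were higher and 6 (35.3%) lower in symbiotic animals, beside 3.89% and 4.02% of all clusters. With 5 CPM added, a setting chosen after seeing the data, only the scaffold_5 cluster at 15501958 stayed 2-fold lower, and the log2 ratios of the other 5 were -0.88 to -0.65. The 167 wider clusters alone in their locus had 9 higher and 6 lower (3.59%), with a median of -0.03. The scaffold_5 cluster at 15501958 had the largest tag number among the 6, and the other 5 had 30 to 59 pooled tags, such as the minus-strand cluster at 8859727 to 8859738 of scaffold_13 with 34 and 25 tags (2.50-fold lower, 1.45 to 4.37). The sharp cluster alone in its locus with the most tags ran the other way: on the plus strand of scaffold_28 at 195883 to 196016, it had 116 and 281 tags and a CPM ratio of 1.32 (1.06 to 1.65).

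The lower limit of the selection lay within a continuous range, with 57 sharp clusters of exactly 30 tags and 71 of 29 tags. On the upper side the limit of 500 CPM left a gap: the strongest sharp cluster kept had 1663 pooled tags (274 CPM), and the nearest left out, on the plus strand of scaffold_1 at 33374203 to 33374292 and of scaffold_9 at 12288420 to 12288495, had 4938 tags (814 CPM) and 6347 tags (1047 CPM). In all, 5 of the 237 clusters of at least 500 CPM were sharp.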

How the data were processed

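CAGE tags were measured in 1 aposymbiotic and 1 symbiotic library. For every tagged base and strand the deposited files give raw tag counts, and further files give counts over the authors' own clusters, without normalization. STAR 2.7.11b and fastp 1.1.0 were used, per the submitters' processing notes. Not given in the sources used here are the genome build, the tag counter and whether duplicate or algal reads were removed.

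Positions were pooled and joined as described above. The most used base is that with the most tags, ties going to the base nearest the 5′ end. Folds are ratios of CPM, and log2 ratios add 1 CPM. The 2-fold size rule uses the latter. No p-value was computed, for want of replicates. Clusters were named by rank: the 10 with the most tags, the 8 highest and 8 lowest ratios from 60 tags, the 5 most and 5 least focused from 100 tags, and neighbours of each limit. Members and lists were chosen with earlier results of these data known. Clustering was tested on simulated data. Planned work on initiator bases needed a genome and was not run. TMM factors came from edgeR 4.0.16 (R 4.3.3). Other steps used scipy 1.17.1, pandas 2.3.3, numpy 2.4.6 and matplotlib 3.10.9 under Python 3.11.15.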

Additional observations from a re-analysis of the deposited data

Results flagged for a closer look

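Each cluster of the authors' lists carries 1 strand, and for 1 of the 1225 sharp clusters the aposymbiotic list names the opposite strand. The same held for 12 of the 7195 wider clusters in the aposymbiotic list and 25 in the symbiotic list, so this is not particular to sharp clusters. The sharp cluster in question lies on the minus strand of scaffold_155 at 9224 to 9241, inside the locus with 13 sharp clusters. The deposited aposymbiotic cluster at 9228 to 9241 is given as plus with 34 tags, yet 33 of them are minus-strand tags. A comparison by listed strand would miss these tags. Of the 1225 sharp clusters, 1209 (98.7%) overlapped an aposymbiotic cluster on their own strand, 15 overlapped none, and all 1225 overlapped a symbiotic one. Of the 7195 wider clusters, 6833 (95.0%) overlapped an aposymbiotic cluster on their own strand, 350 overlapped none, and 7155 (99.4%) overlapped a symbiotic one.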

How the results depend on the processing

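Of 73 alternative values of the summary results, 44 stayed close to the reported ones and 29 moved. Most moved by construction, since other rules choose other clusters. Joining across at most 10 bases gave 3374 sharp clusters, 160 at least 2-fold higher, 150 lower and 9.48% first or alone in their locus (15.7% as reported), and across 40 bases 363, 16, 11 and 22.04%. A width limit of 5 bases gave 73.6% with the same top base and a median of 51.0% of tags on it. Width from the 25th to the 75th percentile gave 2659 clusters, 120 higher, 108 lower, 67.2% and 40.6%. A minimum of 100 tags gave 147 clusters, a median log2 ratio of -0.12, 4 higher, 2 lower, 87.1% with the same top base, 50.7% of tags on it and 19.05% first. With 5 CPM added 6 were higher and 11 lower, and by 4-fold 3 and 2. Loci joined at 500 or 5000 bases gave 18.6% and 9.63% first. With at least 20 tags in each library 79.1% shared the top base. TMM or median ratio factors gave 60 higher and 45 lower. Of 64 values for the clusters with the highest and lowest ratios, 9 fell below 2-fold, all with 5 CPM added, and 0 reversed. Of the 6 sharp clusters alone in their locus that were 2-fold lower, 1 remained with 5 CPM added. Joining at 19 bases, counting both end bases in the width and leaving out scaffold_155 were chosen after seeing the data and moved none of the summary results. No paired analysis was possible because there was 1 library per group, and none could be left out. Depth limits clusters of 30 to 49 tags most.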
